A study of Homo sapiens with 4 samples.

Results

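FAS, MLLT10, BMI1, TET1, SMC3, NFKB2, SUFU, BLNK and TCF7L2 are 9 protein-coding genes of chromosome 10 with known roles in leukaemia, tumour suppression or lymphoid signalling. They were picked by name from the 32673 genes of an expression table, and 8 of the 9 passed the filter of a mean of 0.5 FPKM (a fragment count scaled to transcript length and library size) that 15519 genes passed. They were proposed with their own difference between the groups in view, so their values are given below as a description and carry no test.

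The table holds 4 RNA-seq libraries of a human erythroleukaemia line, TF1, from 2 derived lines with 2 libraries each. TF1-BA cells carry the BCR-ABL oncogene, introduced by retrovirus, and were sensitive to imatinib, the kinase inhibitor that targets BCR-ABL. TF1-BAR cells, titled VECTOR in the labels, descend from TF1-BA, also carry BCR-ABL, and were kept in 2 µM imatinib until resistant. Both lines grew with GM-CSF, at 2 ng/ml by the labels, although the study's methods give a higher concentration, and RNA came from 10000000 cells per library. Each line is a single derivation, nothing states that the libraries of a line were separate cultures, and any effect of a vector or of the drug in the medium cannot be told apart from resistance. Whether imatinib was present at harvest is not stated in the sources used here.

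The 9 genes act in separate pathways. FAS is a death receptor, NFKB2 and TCF7L2 are transcription factors of the NF-kappaB and Wnt pathways, SUFU restrains the GLI factors of the Hedgehog pathway, and BLNK is the adaptor that links the B cell receptor to its downstream enzymes. BMI1, TET1, MLLT10 and SMC3 work on chromatin: BMI1 is a core subunit of Polycomb repressive complex 1 and sustains stem cell self-renewal, TET1 oxidizes 5-methylcytosine, MLLT10 is a DOT1L cofactor and a fusion partner in acute leukaemia, and SMC3 is a ring subunit of cohesin, a complex often mutated in myeloid leukaemia.

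The promoters of these genes differed in sequence. RefSeq (GRCh38.p14) gives 19 start sites for the 9 genes, and the 250 bases before each were searched on both strands. The genes shown are BMI1, with the lowest log2 fold change of the 8 that passed the filter, NFKB2, whose window holds a form of the binding site of its own family of factors, SUFU, which was not lower, and BLNK, which was close to silent. Capitals mark the E-box CACGTG in BMI1, 1 form of the kappaB site (GGG, any 2 bases, TTTCC) in NFKB2, the GC box GGGCGG in SUFU, printed as its reverse complement, and the lone CG dinucleotide in BLNK.
BMI1: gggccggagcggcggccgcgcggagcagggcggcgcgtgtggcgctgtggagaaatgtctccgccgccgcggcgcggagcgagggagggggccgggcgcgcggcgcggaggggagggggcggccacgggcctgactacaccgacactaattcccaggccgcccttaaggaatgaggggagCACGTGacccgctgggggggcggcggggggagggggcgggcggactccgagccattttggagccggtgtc
NFKB2: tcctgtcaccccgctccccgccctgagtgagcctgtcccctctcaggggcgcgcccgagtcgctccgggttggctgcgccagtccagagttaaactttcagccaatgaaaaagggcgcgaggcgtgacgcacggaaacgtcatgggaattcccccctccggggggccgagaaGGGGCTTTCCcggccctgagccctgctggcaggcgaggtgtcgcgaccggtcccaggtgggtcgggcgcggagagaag
SUFU: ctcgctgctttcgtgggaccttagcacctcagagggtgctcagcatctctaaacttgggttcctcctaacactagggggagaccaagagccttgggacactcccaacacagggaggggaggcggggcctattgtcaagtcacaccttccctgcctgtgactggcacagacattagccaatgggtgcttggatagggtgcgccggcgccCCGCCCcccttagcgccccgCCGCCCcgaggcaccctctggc
BLNK: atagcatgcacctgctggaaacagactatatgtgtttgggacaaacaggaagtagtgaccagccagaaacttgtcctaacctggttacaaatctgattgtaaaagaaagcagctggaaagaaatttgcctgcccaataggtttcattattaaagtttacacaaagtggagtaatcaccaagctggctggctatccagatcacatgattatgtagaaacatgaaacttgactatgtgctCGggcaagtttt

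These windows lie at chr10:22320849-22321098 and chr10:102394328-102394577 (both plus strand), chr10:102503722-102503971 (plus strand) and chr10:96271570-96271819 (minus strand). The E-box ended 65 bases before the BMI1 start site, and 6.35% of all 35114 windows of this length held such a match. The kappaB match ended 69 bases before the NFKB2 start. It was found in 2 of the 3 windows of this gene, in no window of the other 8 genes and in 1.73% of all windows. Other forms of the kappaB site were not searched for, so such sites may remain unmarked and uncounted. SUFU had 2 GC boxes, a motif present in 42.6% of all windows and in 12 of the 19 windows of these genes. BLNK held 1 CG dinucleotide against a median of 11 over all windows and of 14 over the 19, and 14.7% of all windows held 1 or none. The CCAAT box, CCAAT, was found in 7 of the 19 windows and 32.0% of all windows, and the TATA box, TATAAA, in 1 window, of TET1, and 10.7% of all. None of these 5 motifs was shared by all 9 genes, and a match of letters is a description of the window alone.

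The libraries held 15465497 to 18042299 fragments, recovered from the FPKM steps, and replicates correlated at 0.983 in TF1-BA and 0.979 in TF1-BAR against 0.946 to 0.956 between the lines (Pearson's r of log2 values across genes, which are not independent replicates). All 8 erythroid and stem progenitor markers were above 1 FPKM in every library, with summed levels of 455 to 476 FPKM in TF1-BA and 552 to 571 FPKM in TF1-BAR. Of the markers of other cells, 3 of 4 B cell markers were listed, summing to 3.22 to 3.60 FPKM and 4.22 to 4.55 FPKM. The 4 T cell markers summed to 19.3 to 20.8 FPKM and 5.83 to 6.40 FPKM, nearly all from CD3D, with CD3E and CD3G at 0.0506 FPKM or less. The monocyte sum, of 3 listed markers, was 0.328 to 0.370 FPKM in TF1-BA and 1.42 to 1.43 FPKM in TF1-BAR, nearly all of the latter from CSF1R, with CD14 at 0.0673 FPKM or less. The 4 fibroblast markers summed to 0.481 to 0.491 FPKM and 0.360 to 0.429 FPKM, and the epithelial sums of 41.1 to 44.2 FPKM and 67.4 to 68.1 FPKM came from KRT8 and KRT18, with EPCAM and CDH1 at 0.103 FPKM or less. The part of these differences in the results was not tested.

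Chromosome 10 as a whole was lower in TF1-BAR. Its 450 protein-coding genes that passed the filter had a median log2 fold change of -0.42, that is 74.5% of the TF1-BA level, with quartiles of -0.67 and -0.14, on the log2(FPKM + 0.5) scale used throughout. Of the 450 genes, 379 were below 0 and 71 above it. The medians of the other 22 chromosomes, the Y left out, lay between -0.05 and 0.39, with chromosome 20 at 0.39 and the other 21 at 0.10 or less. The 13 mitochondrial genes, not counted among these, had a median of -0.47. Both TF1-BA libraries stood above the gene means on chromosome 10, by a median of 0.21 and 0.20, and both TF1-BAR libraries below, by 0.21 and 0.20 in size. The number of copies of chromosome 10 was not measured. Without the filter on low values, which adds genes with few or no fragments, the median was -0.23.

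**Figure D1:**
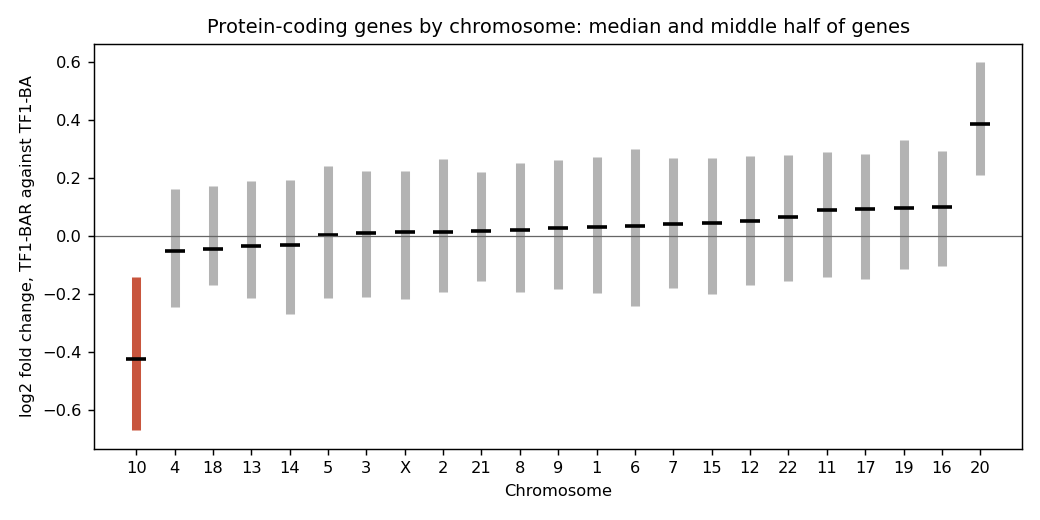
Log2 fold change of TF1-BAR against TF1-BA (y axis) for the protein-coding genes of each autosome and the X chromosome (x axis, ordered by median); black marks are medians and bars span the lower to the upper quartile of genes. Chromosome 10, in red, has a median of -0.42, and chromosome 20 is highest at 0.39.

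Against this background, 7 of the 8 genes that passed the filter were lower in TF1-BAR with no overlap between the lines, and SUFU was level. The same non-overlap was seen in 77.1% of the chromosome's protein-coding genes, in 30.6% of those on other chromosomes and in 28.4% of all genes tested. A log2 fold change below 0 was found in 84.2% of the chromosome's protein-coding genes and in 42.7% of all genes tested. The members' median log2 fold change was -0.81, beside -0.42 for the chromosome and 0.07 for all genes tested. In bulk RNA, less RNA per cell and fewer cells that carry it cannot be told apart.

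**Figure D2:**
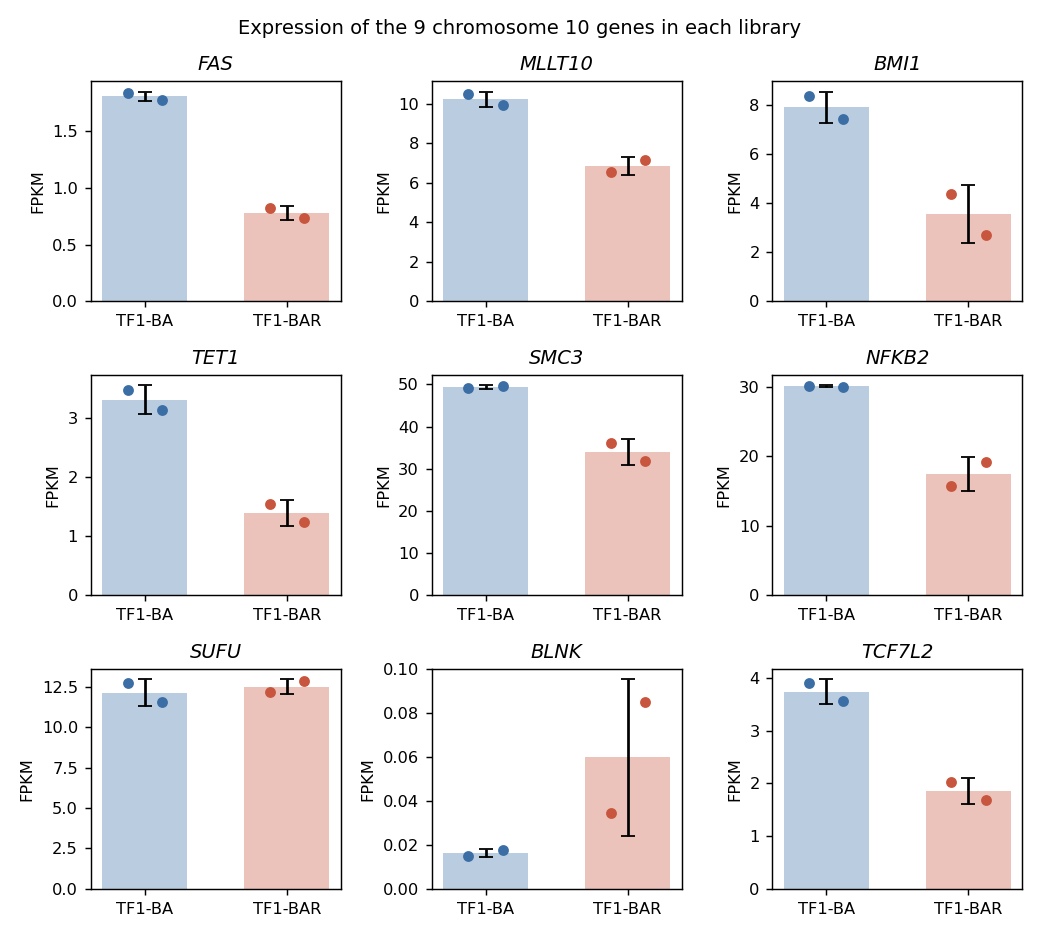
FPKM (y axis, a separate scale per gene, each from 0) of the 9 genes in the TF1-BA and TF1-BAR libraries; points are libraries, bars the mean and error bars the SD (n = 2). FAS, MLLT10, BMI1, TET1, SMC3, NFKB2 and TCF7L2 have both TF1-BAR points below both TF1-BA points, the SUFU points overlap, and BLNK stays under 0.1 FPKM.

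BMI1 (ENSG00000168283, 10:22321211-22331484, plus strand) had the lowest log2 fold change of the 8 with 0.5 FPKM added, although as a share of the TF1-BA level TET1 and FAS were lower. It was at 8.35 and 7.43 FPKM in TF1-BA, from 645 and 492 fragments, and at 4.38 and 2.70 FPKM in TF1-BAR, from 296 and 186 fragments. All values in TF1-BAR were below those in TF1-BA, and the TF1-BAR libraries differed more from each other than those of TF1-BA. The means were 7.89 ± 0.650 and 3.54 ± 1.19 FPKM (SD, n = 2), or 44.9% of TF1-BA. Its log2 fold change of -1.08 (SE 0.214) was 0.66 below the chromosome's median and placed it 26th from the lowest of 450. It was -0.78 without the second TF1-BAR library and -1.39 without the first.

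TET1 (ENSG00000138336, 10:68560656-68694482, plus strand) was at 3.48 and 3.14 FPKM in TF1-BA and at 1.54 and 1.24 FPKM in TF1-BAR. The lines were well apart, with means of 3.31 ± 0.244 and 1.39 ± 0.215 FPKM (SD, n = 2), 42.0% of TF1-BA. The log2 fold change was -1.01 (SE 0.131), 0.59 below the chromosome's median. BMI1 and TET1 were the 2 members at -1 or lower, a size reached by 33 of the chromosome's 450 genes (7.33%). The number of members at -1 or lower depends on the setting. It was 0 with 1 FPKM added and 3, with FAS, with 0.1 FPKM, where TET1 at -1.20 was below BMI1 at -1.17. It was 4 in limma voom, 1 after rescaling to TPM, 1 without the first TF1-BA library and 0 without the second TF1-BAR library. TET1 lay among the 45 genes with the lowest median, -0.62, when the chromosome was cut into 10 bins by gene order.

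MLLT10 (ENSG00000078403, 10:21524675-21743630, plus strand) was at 10.5 and 9.94 FPKM in TF1-BA and at 6.53 and 7.18 FPKM in TF1-BAR, with means of 10.2 ± 0.401 and 6.86 ± 0.461 FPKM (SD, n = 2). TF1-BAR was lower in each pairing of libraries, at 67.1% of TF1-BA. The log2 fold change of -0.54 (SE 0.0850) was 0.12 below the chromosome's median.

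SMC3 (ENSG00000108055, 10:110567691-110604636, plus strand) had the highest level of the 9, at 49.0 and 49.6 FPKM in TF1-BA and 36.2 and 31.8 FPKM in TF1-BAR. Its means of 49.3 ± 0.439 and 34.0 ± 3.09 FPKM (SD, n = 2) lay further apart than the spread in either line, with TF1-BAR at 68.9%. The log2 fold change was -0.53 (SE 0.0815), 0.11 below the chromosome's median. SMC3 and MLLT10 were thus the members nearest to the chromosome's own difference, at ranks 177 and 171 of 450.

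FAS (ENSG00000026103, 10:88990582-89015785, plus strand) was at 1.84 and 1.78 FPKM in TF1-BA, from 141 and 117 fragments, and at 0.820 and 0.731 FPKM in TF1-BAR, from 55 and 50 fragments. The replicates lay close together and the lines far apart, with means of 1.81 ± 0.0415 and 0.776 ± 0.0630 FPKM (SD, n = 2), 42.9% of TF1-BA. The log2 fold change was -0.86 (SE 0.134), 0.43 below the chromosome's median. Since the added 0.5 FPKM weighs on a gene of this level, it was -1.12 with 0.1 FPKM added and -0.66 with 1 FPKM. ACTA2, on the opposite strand of the same locus, was at 0.0853 to 0.239 FPKM, and the library kit does not mark strand.

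NFKB2 (ENSG00000077150, 10:102394110-102402529, plus strand) was at 30.2 and 30.0 FPKM in TF1-BA and at 15.7 and 19.1 FPKM in TF1-BAR. The means of 30.1 ± 0.122 and 17.4 ± 2.41 FPKM (SD, n = 2) were far apart against the spread in either line, with TF1-BAR at 57.9%. Its log2 fold change was -0.78 (SE 0.107), 0.35 below the chromosome's median.

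TCF7L2 (ENSG00000148737, 10:112950250-113167678, plus strand) was at 3.91 and 3.57 FPKM in TF1-BA and at 2.03 and 1.68 FPKM in TF1-BAR. Both TF1-BAR libraries were lower, with means of 3.74 ± 0.239 and 1.86 ± 0.250 FPKM (SD, n = 2), 49.7% of TF1-BA. The log2 fold change was -0.85 (SE 0.121), 0.43 below the chromosome's median. An antisense gene within the locus, AL158212.2, was at 0.120 to 0.552 FPKM.

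SUFU (ENSG00000107882, 10:102503987-102633535, plus strand) did not follow the chromosome. It was at 12.7 and 11.6 FPKM in TF1-BA and at 12.2 and 12.8 FPKM in TF1-BAR, from 1228 to 1577 fragments per library. The lines overlapped, with means of 12.1 ± 0.824 and 12.5 ± 0.467 FPKM (SD, n = 2). Its log2 fold change of 0.04 (SE 0.0820) was 0.47 above the chromosome's median, at rank 388 of 450, and was -0.025 without the second TF1-BA library.

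BLNK (ENSG00000095585, 10:96191702-96271587, minus strand) was at 0.0152 and 0.0177 FPKM in TF1-BA and at 0.0347 and 0.0851 FPKM in TF1-BAR, below the filter in both lines. These values stand for 1, 1, 2 and 5 fragments at the shortest transcript length that gives whole numbers, 3655 bases, or for a common multiple of them, so no fold is given. ZNF518A, which overlaps BLNK on the opposite strand, was at 14.7 and 13.8 FPKM in TF1-BA and at 9.62 and 7.83 FPKM in TF1-BAR, and without strand the few fragments of BLNK cannot be told apart from it.

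In order of mean level in TF1-BA, SMC3 and NFKB2 came first, then SUFU, MLLT10 and BMI1, then TCF7L2 and TET1, then FAS, with BLNK last. No neighbours in this order had overlapping values in either line. The order in TF1-BAR was the same. SUFU and MLLT10, close in TF1-BA at 12.1 and 10.2 FPKM, stood at 12.5 and 6.86 FPKM in TF1-BAR.

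**Figure D3:**
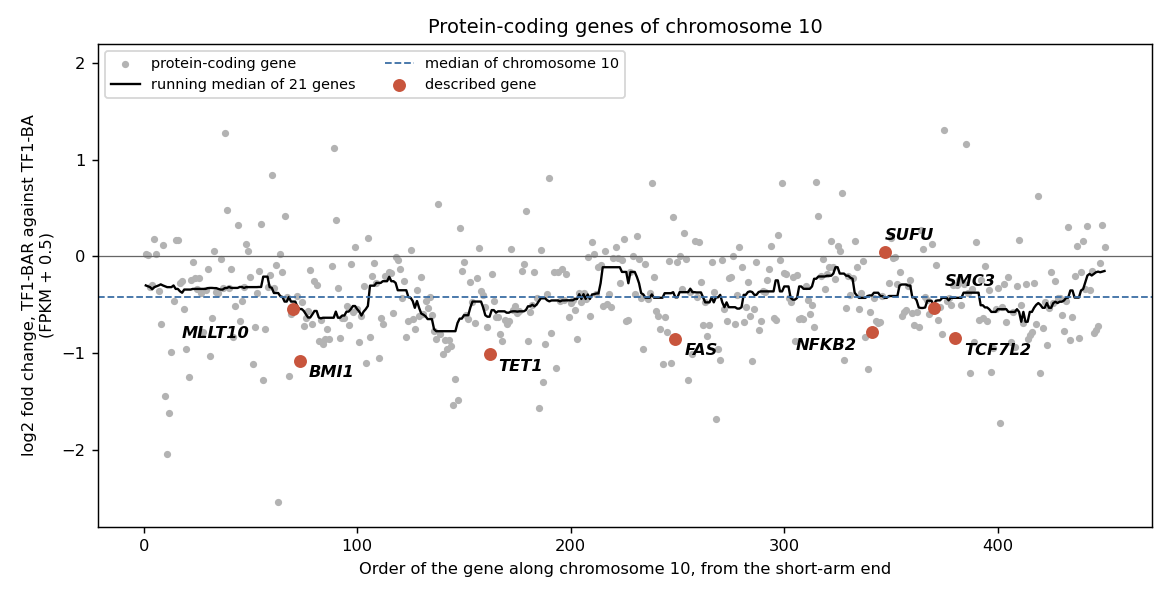
Log2 fold change of TF1-BAR against TF1-BA (y axis) for the 450 protein-coding genes of chromosome 10 in their order along the chromosome (x axis); grey points are genes, the black line a running median of 21 genes, the dashed line the chromosome's median of -0.42, and red points the 8 described genes that passed the filter. The running median stays below 0 along the whole chromosome, with SUFU above it and the other 7 below it or close to it.

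The lower level ran along the whole of chromosome 10. Over the 10 bins of 45 genes each, the medians ranged from -0.62 in the bin with TET1 to -0.25 in that with both NFKB2 and SUFU. Set beside the median of the 20 nearest tested genes, 10 on each side, the same 7 genes were lower and SUFU was higher. The local medians were -0.40 for FAS, -0.44 for MLLT10, -0.53 for BMI1, -0.58 for TET1, -0.48 for SMC3, -0.39 for NFKB2, -0.49 for SUFU and -0.40 for TCF7L2.

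**Figure D4:**
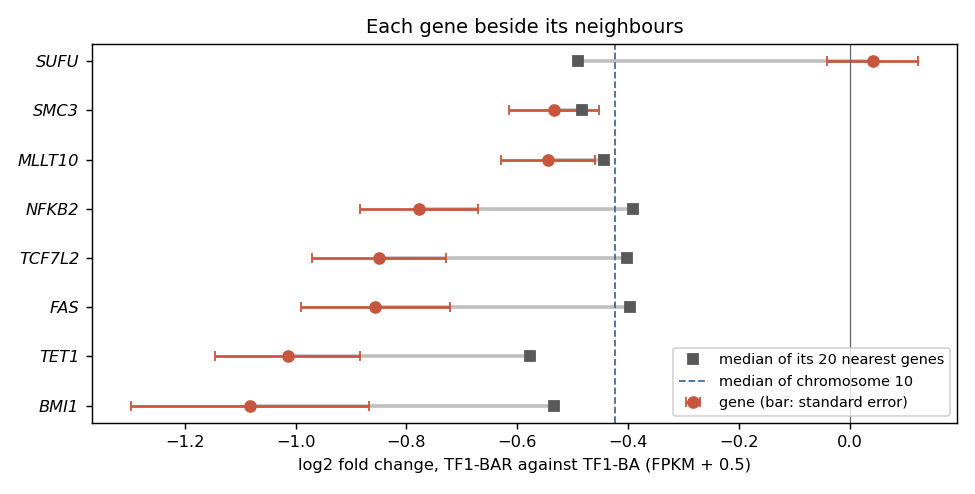
Log2 fold change of TF1-BAR against TF1-BA (x axis) for the 8 genes that passed the filter (rows); red points with standard errors are the genes, grey squares the median of the 20 nearest genes, and the dashed line the chromosome's median of -0.42. SUFU is to the right of its neighbours and the other 7 to the left, SMC3 and MLLT10 by the least.

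The immediate neighbours varied more than the local medians. FAS stood between STAMBPL1, at 0.41, and LIPA, the lysosomal acid lipase, at -0.05, so neither neighbour shared its difference. MLLT10 stood between PLXDC2 at -0.60 and DNAJC1 at -0.52, close to its own -0.54. BMI1 had COMMD3 at -0.41 and SPAG6 at -0.47 beside it. Their means were low, at 0.79 against 0.47 FPKM and 1.57 against 0.99 FPKM in TF1-BA and TF1-BAR, so the added 0.5 FPKM makes both gaps smaller. TET1 had SLC25A16 at -0.73 and CCAR1 at -0.18. SMC3 lay between DUSP5, a MAP kinase phosphatase, at 0.12 and RBM20 at -0.09. GBF1 at -0.57 and PSD at -0.43 flanked NFKB2. SUFU followed ACTR1A at -0.41 and preceded TRIM8, at 43.4 to 48.0 FPKM in the libraries, which like SUFU was level at 0.06. VTI1A, on the side of TCF7L2 nearer the short arm, was at -0.29.

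Of the protein-coding genes tested, members left out, 3 were nearest to the members' mean profile over the 4 libraries, by Euclidean distance of centred log2 values. They were SLK on chromosome 10, with a log2 fold change of -0.71 at a distance of 0.0143, PSPC1 on chromosome 13, with -0.70 at 0.0234, and HSPA4L on chromosome 4, with -0.69 at 0.0288. Among the 50 nearest genes, 20 lay on chromosome 10. It holds 450 of the protein-coding genes tested, beside 11235 others, and 3.82% of the tested genes of any kind. The profile itself was that of genes of this chromosome chosen with their lower values known.

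Partner genes of the 9 were then described from lists of 137 genes. The 109 on other chromosomes that passed the filter were tested with limma, with p-values adjusted over all 15519 genes. At an adjusted p under 0.05, 26 partners were higher in TF1-BAR, 8 were lower and 75 did not pass, beside 16.3% and 10.5% of all genes tested called higher and lower. Rescaled to TPM, the split was 38 higher and 5 lower, beside 20.5% and 8.72% of all genes, whose median log2 fold change was then 0.13 in place of 0.07. With eBayes without trend it was 20 higher and 3 lower, beside 12.4% and 7.47% of all genes. The calls rest on few libraries, and with a library left out the spread comes from the libraries of the other line alone. In place of 34, the count was 22 without the first TF1-BAR library and 6 without the second. It was 0 in limma without the first and without the second TF1-BA library, with 28 and 32 partners at an unadjusted p under 0.05, beside 27.1% and 28.0% of all genes. The count was 10 without the filter, where 4.69% of all genes tested were called in either direction, and 55 in limma voom on recovered fragments, where 37.9% were.

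**Figure D5:**
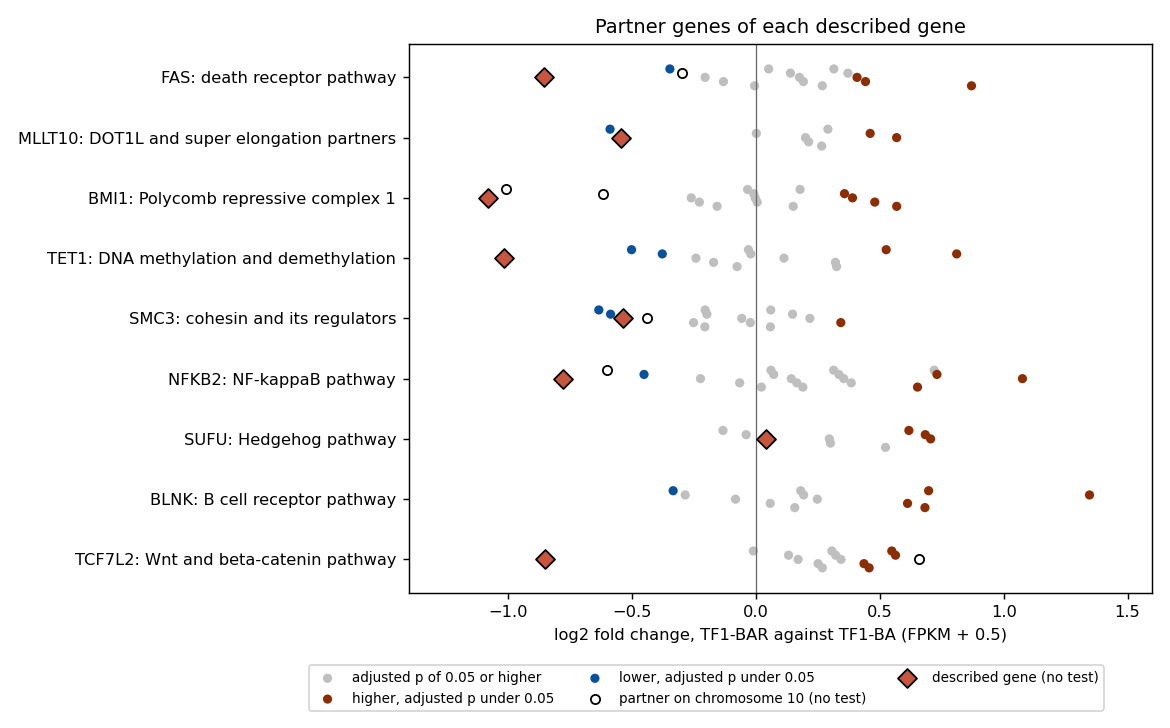
Log2 fold change of TF1-BAR against TF1-BA (x axis) for the partner genes in each list (rows); brown and blue points are higher and lower at an adjusted p under 0.05 (limma), grey points did not pass, open points are partners on chromosome 10 and diamonds are the described genes, both without a test. In the lists of FAS, BMI1, TET1, NFKB2 and TCF7L2 the described gene lies to the left of every tested partner.

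Among the death receptor partners of FAS, 3 of 14 were higher, 1 was lower and 10 did not pass, with a median log2 fold change of 0.18. TNFRSF10D, a decoy receptor for TRAIL, rose from 6.28 and 7.15 FPKM to 12.7 and 12.6 FPKM (log2 fold change 0.87, SE 0.0886, adjusted p = 0.00686, limma). CFLAR, the inhibitor of caspase-8 activation, rose by 0.44 (adjusted p = 0.0281, limma) and FAF1, a FAS-binding factor, by 0.41 (adjusted p = 0.0264, limma). The executioner caspase gene CASP6 fell by 0.35 on the log2 scale (adjusted p = 0.0311, limma). The ligand gene FASLG and the related receptor gene TNFRSF10B were below the filter, the latter at 0.258 to 0.364 FPKM with overlap between the lines.

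The NF-kappaB list had 3 of 17 higher, 1 lower and 13 that did not pass, with a median of 0.19. CD40, a receptor that feeds the noncanonical arm in which NFKB2 acts, rose from 5.72 and 6.29 FPKM to 12.6 and 13.8 FPKM (log2 fold change 1.08, SE 0.0904, adjusted p = 0.00534, limma). CD40 lies on chromosome 20, whose median was 0.39. TNFRSF13C, the BAFF receptor gene of the same arm, rose by 0.73 (adjusted p = 0.0186, limma). Of the IKK subunits, IKBKB rose by 0.65 (adjusted p = 0.0120, limma), IKBKG fell by 0.45 (adjusted p = 0.0275, limma), and CHUK, on chromosome 10, was at 9.05 and 8.66 FPKM against 5.80 and 5.55 FPKM, a log2 fold change of -0.60. NFKB1, the paralog of NFKB2 on chromosome 4, was at 7.92 and 7.10 FPKM against 7.89 and 8.80 FPKM (log2 fold change 0.14, adjusted p = 0.319, limma).

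For BMI1, 4 of 13 Polycomb repressive complex 1 partners were higher and 9 did not pass, with a median of 0.01. The count of lower calls was 0 in limma, also at an unadjusted p under 0.05 and in limma voom, beside 10.5%, 16.7% and 15.4% of all genes, shares that amount to few genes in a list of this size. The higher ones were the chromodomain genes CBX2, at 0.57 (adjusted p = 0.0123, limma), CBX8, at 0.39 (adjusted p = 0.0436, limma) and CBX6, at 0.36 (adjusted p = 0.0342, limma), and the polyhomeotic gene PHC1, at 0.48 (adjusted p = 0.0131, limma). The call on CBX8 was also lost with the replicate block, with upper-quartile scaling and with quantile normalization. Of the BMI1 paralogs on chromosome 10, which were not tested, PCGF5 was at -1.01 and PCGF6 at -0.61. On other chromosomes PCGF2 was at 0.18 (adjusted p = 0.156, limma), PCGF1 at -0.01 (adjusted p = 0.963, limma) and PCGF3 at -0.0027 (adjusted p = 0.983, limma), and none of these passed. PCGF5 was at 1.31 and 1.09 FPKM in TF1-BA and at 0.336 and 0.352 FPKM in TF1-BAR, or 28.6% of TF1-BA, a gap that the added 0.5 FPKM makes smaller on the log2 scale. The catalytic partners RING1 and RNF2 were at 0.01 and -0.16 and did not pass.

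Among 12 genes of DNA methylation and demethylation listed for TET1, 2 were higher, 2 were lower and 8 did not pass, with a median of -0.03. OGT, whose product binds TET proteins, rose from 64.5 and 68.9 FPKM to 113 and 122 FPKM (log2 fold change 0.81, SE 0.0702, adjusted p = 0.00563, limma). DNMT3B, a de novo methyltransferase gene on chromosome 20, rose by 0.53 (adjusted p = 0.0244, limma). IDH1 fell by 0.50 (adjusted p = 0.0208, limma) and UHRF1, a cofactor of maintenance methylation, by 0.38 (adjusted p = 0.0467, limma), a call also lost with the replicate block. The paralogs TET2 and TET3 were at 0.11 (adjusted p = 0.517, limma) and 0.32 (adjusted p = 0.0870, limma), although TET3 had an adjusted p under 0.05 in another setting.

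Of 8 DOT1L and super elongation partners of MLLT10, 2 were higher, 1 was lower and 5 did not pass, with a median of 0.24. MLLT3 and MLLT1, YEATS domain readers and leukaemia fusion partners themselves, rose by 0.57 (adjusted p = 0.0117, limma) and 0.46 (adjusted p = 0.0368, limma). PICALM, a clathrin adaptor gene that fuses with MLLT10 in leukaemia, fell from 234 and 215 FPKM to 157 and 142 FPKM (log2 fold change -0.59, SE 0.0784, adjusted p = 0.0109, limma). DOT1L and the paralog MLLT6 were at 0.20 and 0.21 and did not pass, although MLLT6 had an adjusted p under 0.05 in another setting.

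The cohesin list of SMC3 had 1 of 13 higher, 2 lower and 10 that did not pass, with a median of -0.06. RAD21, which closes the cohesin ring, fell from 95.3 and 85.7 FPKM to 67.0 and 53.8 FPKM (log2 fold change -0.59, SE 0.123, adjusted p = 0.0290, limma). ESCO2, the acetyltransferase that acts on SMC3, fell by 0.63 (adjusted p = 0.0441, limma), and the loader gene MAU2 rose by 0.34 (adjusted p = 0.0393, limma). SMC1A, the ring partner of SMC3, was at -0.20 (adjusted p = 0.104, limma). The releasing factor gene WAPL, on chromosome 10, was at -0.44, beside -0.53 for SMC3.

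In the Hedgehog list of SUFU, 9 of 17 genes were below the filter, GLI1, GLI2 and GLI3 among them. Of the 8 tested, 3 were higher and 5 did not pass, with a median of 0.41. The count of lower genes was 0 in limma, by all 3 of these criteria, and nothing is read from it in so short a list. PTCH1, the receptor gene and a target of the pathway, rose by 0.62 (adjusted p = 0.0301, limma) from 0.949 and 0.955 FPKM in TF1-BA, and GPR161, a ciliary inhibitor of the pathway, rose by 0.68 (adjusted p = 0.0217, limma). GLI2 went from 21 and 15 fragments in TF1-BA to 60 and 67 in TF1-BAR, at 0.132 to 0.568 FPKM, and did not pass in the fit without a filter (adjusted p = 0.0653, limma). GLI1 was at 12 to 20 fragments with overlap, and GLI3 at 1 or 2. Where a transcript length was fitted, such fragment numbers are lower bounds.

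Of 12 tested B cell receptor partners of BLNK, 4 were higher, 1 was lower and 7 did not pass, with a median of 0.19. CD79B, a signalling chain of the receptor, rose from 2.56 and 2.89 FPKM to 7.84 and 7.54 FPKM (log2 fold change 1.35, SE 0.0937, adjusted p = 0.00409, limma). CD79B and CD40 were the 2 partners of all 109 that also reached a log2 fold change of 1, beside 4.75% of all genes tested. The partner chain gene CD79A rose by 0.61 (adjusted p = 0.0260, limma), VAV1 by 0.68 (adjusted p = 0.00781, limma) and PLCG1, on chromosome 20, by 0.70 (adjusted p = 0.0108, limma). LCP2, the adaptor of the BLNK family used in myeloid and T cells, was far above BLNK at 28.4 and 24.9 FPKM in TF1-BA and fell by 0.33 on the log2 scale (adjusted p = 0.0440, limma). CLNK, the other paralog, was at 0.0601 FPKM or less, and the B cell gene PAX5 at 0.139 FPKM or less.

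Of 12 tested Wnt partners of TCF7L2, 4 were higher and 8 did not pass, with a median of 0.31. By the same 3 criteria 0 were lower in limma, beside the shares of all genes given for the Polycomb list. CCND1, a cyclin gene and Wnt target, rose by 0.56 (adjusted p = 0.0200, limma), the corepressor gene TLE3 by 0.55 (adjusted p = 0.0277, limma) and the coactivator gene PYGO2 by 0.46 (adjusted p = 0.0219, limma). The paralog LEF1 rose from 2.37 and 2.52 FPKM to 3.35 and 3.62 FPKM (log2 fold change 0.44, SE 0.0980, adjusted p = 0.0334, limma), while TCF7 was at 0.34 (adjusted p = 0.196, limma) and TCF7L1 was below the filter. In another setting TCF7 had an adjusted p under 0.05. LEF1 and TCF7L2 were at 2.37 to 2.52 and 3.57 to 3.91 FPKM in TF1-BA, and at 3.35 to 3.62 and 1.68 to 2.03 FPKM in TF1-BAR, so the order of their levels differed between the lines. BTRC, the ubiquitin ligase receptor for beta-catenin, lies on chromosome 10 and was nevertheless higher in both TF1-BAR libraries, at 7.78 and 8.89 FPKM against 5.50 and 4.69 FPKM, a log2 fold change of 0.66. Both TF1-BAR libraries were above both TF1-BA libraries in 9.33% of the chromosome's protein-coding genes and in 40.9% of all genes tested.

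Among the partners on chromosome 10, PCGF5, PCGF6, CHUK and WAPL were thus lower and BTRC was higher.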

How the data were processed

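RNA was extracted with TRIzol, libraries were made with the NEBNext Ultra kit, and reads were aligned by the authors with TopHat (2.0.13) to GRCh38. The authors deposited FPKM per gene, which the submitters' processing notes tie to Cufflinks (2.2.0). The FPKM values were the base of all results, also of those rescaled to TPM or turned back into fragments. In R 4.3.3, limma 3.58.1 (lmFit, eBayes with trend) was fitted to log2(FPKM + 0.5) over 15519 genes with a mean of at least 0.5 FPKM. P-values were two-sided and adjusted by Benjamini-Hochberg over all of them. They measure the spread between libraries, which may be technical, and with 2 libraries against 2 an exact permutation test cannot go below p = 0.333. The script was tested on simulated data.

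Fragments were recovered from the FPKM steps: of 30853 genes above 0, 14113 were whole at their GENCODE 44 length and 16739 at a fitted length. The tolerance was 1e-05 of a fragment, wider for high fragment numbers. The shortest fitting length was taken, so fragment numbers at fitted lengths are lower bounds. The members and lists were chosen with earlier results of these data known. The described genes, and partners on chromosome 10, received no test. The genes named were the members, their nearest tested neighbours, closest paralogs (TNFRSF10B for FAS and PCGF2 for BMI1, for example), chromosome 10 partners, the GLI genes, the 3 genes closest in profile, and up to 4 called genes per list by size of change. Genes named outside this rule (DOT1L, RING1, RNF2, PCGF1, PCGF3, FASLG, PAX5, ACTA2, ZNF518A and AL158212.2) were chosen after their values were seen. The alternatives tried were other pseudocounts (0.1 and 1 FPKM), filters, scalings, variance models, the replicate block, leaving out each library, and limma voom. Promoter windows came from RefSeq (GRCh38.p14). List and marker genes without a row were not analysed here, and 2 genes that the naming rule covers are not reported here.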

Additional observations from a re-analysis of the deposited data

How the results depend on the processing

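In every setting run, the same number of described genes, 7, lay below the chromosome 10 median. That median, -0.42, was -0.38 and -0.45 with 1 and 0.1 FPKM added, -0.44 with a filter at 1 FPKM, -0.23 without a filter, -0.45 with upper-quartile scaling, -0.36 after rescaling to TPM, -0.48 after quantile normalization, -0.46 in limma voom on recovered fragments and -0.35 over the 593 genes of the chromosome, of any kind, that passed the filter. The members' median, -0.81, was -0.70 and -0.88 with 1 and 0.1 FPKM added, -0.75 after rescaling to TPM, -0.87 after quantile normalization and -0.91 in limma voom. With each library left out in turn, the chromosome median ranged from -0.42 to -0.41, the members' median from -0.83 to -0.76 and the partner calls from 0 to 22, with fewer samples in each fit, while all genes called ranged from 42 to 3176 of 15519. SUFU ranged from -0.025 without TF1-BA replicate 2 to 0.11 without TF1-BA replicate 1. Partner calls, 34, were 10 without a filter, where 30853 genes were tested, 55 in limma voom and 23 with eBayes without trend. The replicate block left both medians at -0.42 and -0.81, as it must when each block holds a library of each line, and gave 33 partner calls. Libraries with the same number showed little shared deviation across genes (correlation 0.0646). This does not settle whether they were handled together, since a shared batch with little effect would look the same. Low fragment numbers limit FAS and BLNK most.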
